A study of Mus musculus with 2 samples.

Results

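The clustered histone genes of the mouse were followed in 2 single-cell libraries of CD8+ T cells. The set was taken as every gene symbol of the files that starts with Hist1h, Hist2h, Hist3h or Hist4h, which gave 67 of 32285 genes. The cells were murine CD8+ T cells from lymph node, in a study whose title names electrical stimulation through the matrix as a regulator of CD8+ T cell fate. One library was labelled NC and the other HC, and the labels used here give neither the full form of these names nor the strain, the age of the mice, the culture time or which library was stimulated. Each group was therefore 1 library, no test between groups was possible, and every interval below is a 95% interval for counting error only, which leaves out the spread between cultures or animals. RNA was captured by its 3' end with the 10x Genomics 3' kit v3.1, and a unique molecular identifier (UMI) marked each captured molecule.

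Replication-dependent histone genes supply the proteins that package newly copied DNA, and their RNA rises in S phase of the cell cycle. Unlike other messenger RNAs, these transcripts normally end just after a short stem-loop, bound by the stem-loop binding protein SLBP, and carry no poly(A) tail. Some clustered histone genes also give longer, polyadenylated transcripts that are found outside S phase and in resting cells. Capture with oligo-dT, as in this kit, favours polyadenylated RNA, so the UMI counts below describe the captured fraction and not the full amount of histone RNA. For the same reason levels are compared between libraries or groups of cells for the same gene, and counts of different genes are given as shares of UMIs and not as amounts of RNA.

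The members were placed in 3 classes. Hist1h2bc, Hist1h1c, Hist2h2be, Hist3h2a, Hist3h2ba and Hist4h4 formed the class of genes also seen outside S phase, Hist1h1t, Hist1h2ba and Hist1h2aa the testis class, and the other 58 genes the replication-type class. All 67 members were found by gene identifier in the GENCODE vM21 annotation of build GRCm38. The largest cluster held 54 members at chr13:21715763-23934851, which includes all H1 genes of the set. A second held 10 members at chr3:96219865-96270132, Hist3h2a and Hist3h2ba lay at chr11:58948920-58956830, and Hist4h4 stood alone at chr6:136801553-136804415.

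The 3' stem-loop is the sequence that sets these transcripts apart, so its forms among the members are shown first, with the stem in capitals and the loop in lower case. The search took any stretch GGNNNNTTNNNNNNCC of 16 bases whose outer 6 bases on each side pair with each other, in the sense strand of the annotated transcripts. Each line gives an example gene, and the text after the lines gives the positions and the number of members with that form.
Hist1h2ab: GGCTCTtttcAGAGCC
Hist1h4d: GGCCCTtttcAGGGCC
Hist1h3c: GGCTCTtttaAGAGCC
Hist1h4i: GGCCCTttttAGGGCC
Hist1h4b: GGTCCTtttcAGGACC
Hist2h2ac: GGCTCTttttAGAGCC
The form shown for Hist1h2ab, at chr13:23751572-23751587 on the plus strand, was found in 26 members of the H1, H2A, H2B and H3 families. The form of Hist1h4d, at chr13:23581950-23581965 on the plus strand, occurred in 7 members, all of them H4 genes. The form of Hist1h3c, at chr13:23745047-23745062 on the minus strand, occurred in 6 members. Hist1h4i carried its form at chr13:22040966-22040981 on the minus strand, and it was found in 2 H4 genes. Another 2 H4 genes shared the form of Hist1h4b, at chr13:23757366-23757381 on the plus strand, and the form of Hist2h2ac, at chr3:96220418-96220433 on the minus strand, occurred in that gene alone. In all, 44 of 67 members held such a stem-loop, 24 to 61 bases after the last codon and thus in the 3' untranslated region, against 0.594% of 21901 protein-coding genes. That background counts such a stretch anywhere in any protein-coding transcript of a gene and includes the members, whereas members were searched only after the last codon. Of the 23 members without one, 15 have annotated models that end fewer than 20 bases after the last codon, so their loops could not be searched for. Hist1h1b, the most counted member, was one of these.

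After filtering, 13641 NC and 13617 HC cells were kept, with 115789139 and 114430972 UMIs in total and medians of 6898 and 7425 UMIs per cell. Cells with more than 10% mitochondrial UMIs, which were left out, made up 7.41% of NC and 11.5% of HC barcodes. At least 1 UMI of 6 T cell genes (Cd8a, Cd8b1, Cd3d, Cd3e, Cd3g and Trac) was present in 99.96% of NC and 99.99% of HC cells. Cd8a itself was seen in 84.9% of NC and 78.6% of HC cells, and Cd8b1 in 95.1% and 95.3%. Cd8a was lower in HC, at a log2 ratio of HC over NC of -0.54. Cd4 had 1 and 2 UMIs in total, and 49 barcodes were shared by the kept cells of the 2 libraries. The summed level of 5 B cell genes was 35.4 CPM (UMIs scaled to the library total, so that each library sums to 1000000) in NC and 16.5 in HC, and that of 5 macrophage and dendritic cell genes 4.60 and 1.28 CPM. The part of these other cells in the histone values was not tested. Doublets were not removed.

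Of the 67 members, 64 had UMIs in both libraries. Hist1h2bq, Hist1h2ba and Hist1h2aa had none in either, which allows up to 0.0259 CPM (NC) and 0.0262 CPM (HC) of assigned UMIs when 3 UMIs are taken as the limit. For Hist1h2bq this is no limit on its RNA, because 97.2% of its 90-base stretches also occur in another member, mostly Hist1h2br, and such reads may not have been assigned. The third testis gene, Hist1h1t, a linker histone of sperm precursors, had 3 UMIs in NC and 6 in HC. A level of 5 CPM was reached in at least 1 library by 39 members, of which 34 were replication-type and 5 of the outside S class, and the other 28 stayed below. Just above that threshold lay Hist1h2bg, with 3.96 CPM (NC) and 6.17 CPM (HC), and just below it Hist1h3g, with 3.2 and 4.83 CPM. UMIs were unevenly spread over the members. Hist1h1b alone took 27.8% of the members' UMIs in NC and 28.8% in HC, and the 5 most counted members together 58.7% and 58.4%.

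Histone UMIs made up a larger share of the HC library than of the NC library. The replication-type class summed to 1553 CPM (NC, 1545 to 1560) and 2086 CPM (HC, 2078 to 2095), a log2 ratio of HC over NC of 0.43 (0.42 to 0.44). The outside S class summed to 121.1 CPM (NC, 119.1 to 123.1) and 139.1 CPM (HC, 136.9 to 141.3), a log2 ratio of 0.20 (0.17 to 0.23). Most of the outside S sum came from Hist1h1c, and without it the class stood at 38.7 CPM (NC) and 36.7 CPM (HC), a log2 ratio of -0.08 (-0.14 to -0.02). That trimming was chosen after the values were seen. When every cell was thinned to 2000 UMIs, a replication-type UMI was seen in 69.4% of NC and 77.0% of HC cells, and an outside S UMI in 20.4% and 23.8%. Without thinning these shares were 90.5% and 92.8% for the replication-type class and 53.2% and 58.6% for the outside S class.

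**Figure D1:**
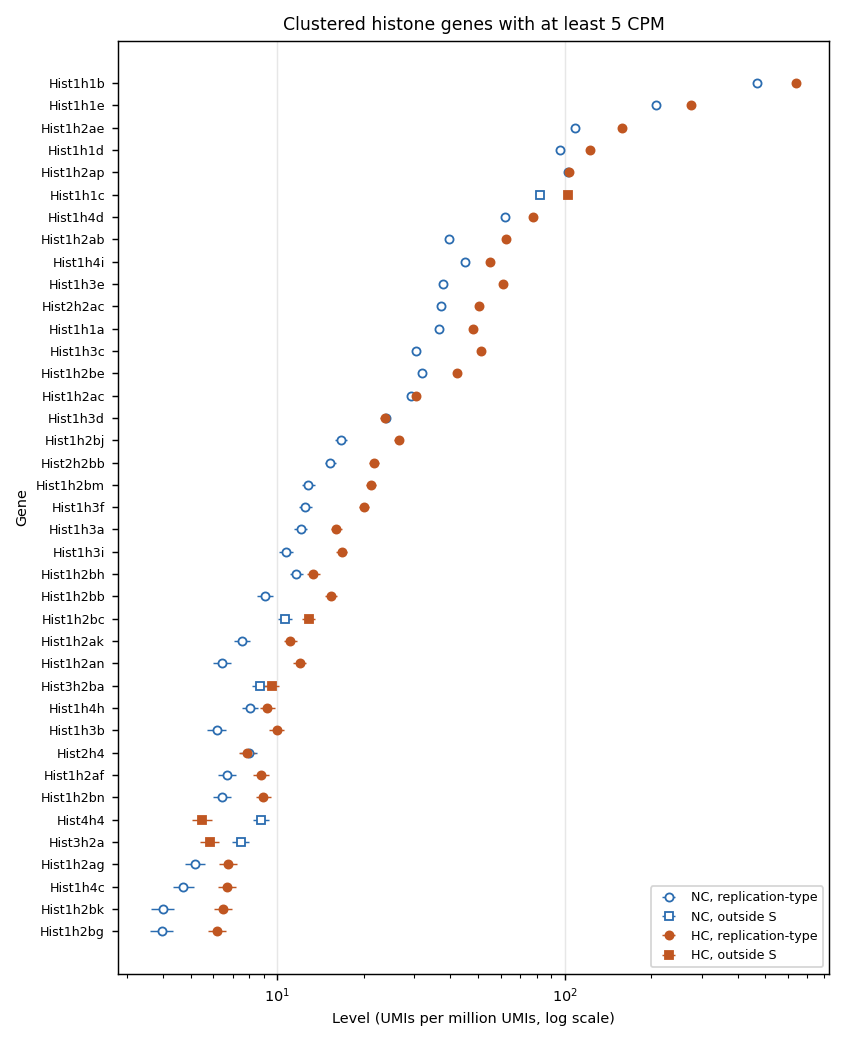
Level of each of the 39 clustered histone genes with at least 5 CPM, in CPM on a log axis. Open blue symbols are NC, filled orange symbols HC, circles replication-type genes and squares genes also seen outside S phase, and the bars are 95% Poisson intervals. HC lies to the right of NC for 35 of the 39 genes, and Hist4h4 and Hist3h2a lie to the left.

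Counted gene by gene, 12 of the 39 members were at least 1.5-fold higher in HC, against a background of 1.93% of the 8704 genes that reached 5 CPM. One member, Hist4h4, was at least 1.5-fold higher in NC, against a background of 1.47%. The interval of the log2 ratio lay above 0 for 33 members, below 0 for 2 and across 0 for 4. The median log2 ratio was 0.41 over the 39 members and -0.03 over all genes tested. The 12 members were Hist1h2an at a log2 ratio of 0.89, Hist1h2bb at 0.76, Hist1h3c at 0.75, Hist1h2bm at 0.72, and Hist1h3b, Hist1h2bk, Hist1h3e, Hist1h3f, Hist1h2bj, Hist1h2ab, Hist1h3i and Hist1h2bg between 0.64 and 0.70. None of them was an H1 or H4 gene, and all lay in the chromosome 13 cluster. Hist1h2an, Hist1h3i, Hist1h2bk, Hist1h3b, Hist1h2ab and Hist1h3e share at least 50% of their 90-base stretches with another member. The 12 are thus not all separately measured genes.

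The linker histones, H1, bind the DNA that enters and leaves the nucleosome. Hist1h1b stood at 466 CPM (NC) and 640 CPM (HC), a log2 ratio of 0.46 (0.44 to 0.47). It was seen in 31.2% of thinned NC cells and 43.7% of thinned HC cells. Hist1h1e was at 209 CPM (NC) and 275 CPM (HC), a log2 ratio of 0.40 (0.37 to 0.42). Hist1h1d was at 96.5 and 123 CPM, a log2 ratio of 0.35, and Hist1h1a, the least counted of the replication-type linker histones, at 36.7 and 47.9 CPM, a log2 ratio of 0.38. Hist1h1c, the linker histone that is also made outside S phase, stood at 82.4 CPM (NC) and 102 CPM (HC), a log2 ratio of 0.31 (0.27 to 0.35). All 5 measured H1 genes were thus higher in HC, with a median log2 ratio of 0.38 and none at 1.5-fold.

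The H2A and H2B proteins form the dimers on either side of the nucleosome core. Among the H2A genes, Hist1h2ae was at 109 CPM (NC) and 159 CPM (HC), a log2 ratio of 0.54 (0.51 to 0.58). Hist1h2ab was at 39.7 and 62.7 CPM, a log2 ratio of 0.66 (0.60 to 0.71), and Hist2h2ac, from the chromosome 3 cluster, at 37.1 and 50.6 CPM, a log2 ratio of 0.45. These were higher in HC, whereas other H2A genes were at nearly the same level in both libraries. Hist1h2ap stood at 103 CPM in both NC and HC, with a log2 ratio of 0.01 (-0.03 to 0.04), and Hist1h2ac at 29.3 CPM (NC) and 30.3 CPM (HC), a log2 ratio of 0.05 (-0.02 to 0.12). Hist1h2an went from 6.45 CPM in NC to 12.0 CPM in HC, the largest ratio of the 39 members, though 83.9% of its 90-base stretches also occur in another member.

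All 11 measured H2B genes had higher values in HC, apart from Hist3h2ba once cells were thinned, with a median log2 ratio of 0.51, and 5 of them passed 1.5-fold. Hist1h2be was the most counted at 32.0 CPM (NC) and 42.1 CPM (HC), a log2 ratio of 0.40. Hist1h2bj was at 16.7 and 26.5 CPM, Hist2h2bb at 15.3 and 21.8 CPM, and Hist1h2bm at 12.8 and 21.2 CPM. Hist1h2bc, an H2B gene known for expression outside S phase, was at 10.7 CPM (NC, 10.1 to 11.3) and 12.9 CPM (HC, 12.2 to 13.6), a log2 ratio of 0.27 (0.16 to 0.38). Hist3h2ba was at 8.70 and 9.59 CPM, a log2 ratio of 0.14 (0.02 to 0.26) that became -0.08 when cells were thinned. Hist2h2be was below the threshold at 3.05 CPM (NC) and 2.90 CPM (HC), and its interval held 0.

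The H3 genes, whose product forms the core tetramer with H4, had the highest median log2 ratio of the 5 families, 0.68. Of the 7 measured, 5 passed 1.5-fold, with HC the higher. Hist1h3e was at 37.8 CPM (NC) and 60.9 CPM (HC), a log2 ratio of 0.69 (0.63 to 0.74). Hist1h3c was at 30.4 and 51.2 CPM, a log2 ratio of 0.75 (0.69 to 0.81). Hist1h3f was at 12.5 and 20.1 CPM, Hist1h3i at 10.7 and 16.8 CPM, and Hist1h3b at 6.15 and 9.96 CPM. The exception was Hist1h3d, at 23.8 CPM in each library, with a log2 ratio of -0.01 (-0.08 to 0.07). Hist1h3a, at 12.1 CPM (NC) and 16.1 CPM (HC), lay between them with a log2 ratio of 0.41.

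None of the 6 measured H4 genes was 1.5-fold higher in HC. Hist1h4d was at 62.0 CPM (NC) and 77.8 CPM (HC), a log2 ratio of 0.33 (0.28 to 0.37), and Hist1h4i at 45.0 and 55.2 CPM, a log2 ratio of 0.30 (0.24 to 0.35). Hist2h4 was at 7.95 CPM (NC) and 7.86 CPM (HC), and its interval held 0. Hist4h4, the H4 gene that lies apart from the clusters, was on the other side, at 8.78 CPM (NC, 8.25 to 9.34) and 5.49 CPM (HC, 5.07 to 5.93), a log2 ratio of -0.68 (-0.82 to -0.53). With each cell thinned to 2000 UMIs that ratio was -0.44 and no longer passed 1.5-fold. Hist3h2a, the H2A gene of the chromosome 11 pair, was also lower in HC, at 7.46 CPM (NC) and 5.82 CPM (HC), a log2 ratio of -0.36 (-0.51 to -0.21). Its whole annotated length lies within Trim17 on the same strand, so reads of the 2 genes may not be told apart.

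The libraries also differed in how many cells carried RNA of proliferation genes. Mki67, a gene of cycling cells, had at least 1 UMI in 53.4% of NC and 69.2% of HC cells, or 32.0% and 46.4% after thinning. Cdc6, which loads the replicative helicase before S phase, was seen in 13.9% and 17.9% of cells, and Ccnb1, the cyclin of G2 and M phase, in 28.4% and 35.0%. Cells with a marker were deeper than cells without it. In NC the median was 9367 UMIs in cells with Mki67 and 5703 in cells without, and in HC it was 8774 and 5172.5. Thinned values are given below for the class ratios by marker, except for the outside S class by Mki67, which is at full depth. In the thinned values the marker was called anew at 2000 UMIs, so some cells with a marker at full depth moved to the cells without. The values of single members and of the 8 kinds of cell are at full depth, and the part of depth in them was not tested.

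Replication-type genes were far higher in cells with Mki67. In NC they summed to 2119 CPM in cells with Mki67 and 468 CPM in cells without, a log2 ratio of 2.18 (2.16 to 2.20), and in HC to 2493 and 511 CPM, a log2 ratio of 2.29 (2.26 to 2.31). With thinned cells, in which Mki67 was called anew, the ratios were 1.56 in NC and 1.39 in HC. Fewer cells then count as having Mki67, so depth and this change of label cannot be told apart in the lower ratios. At full depth the outside S class had smaller log2 ratios, of 0.38 in NC and 0.53 in HC, and without Hist1h1c of -0.07 (-0.16 to 0.02) and -0.12 (-0.23 to -0.01). In NC 34 of 39 members with at least 5 CPM on either side of the split were at least 1.5-fold higher in cells with Mki67, against a background of 10.5%, and in HC 36 of 41, against 11.7%. In each library 1 member, Hist3h2a, was at least 1.5-fold higher in cells without Mki67, where the background was 4.33% in NC and 3.89% in HC. In both libraries the replication-type class thus had the larger ratio at full depth.

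**Figure D2:**
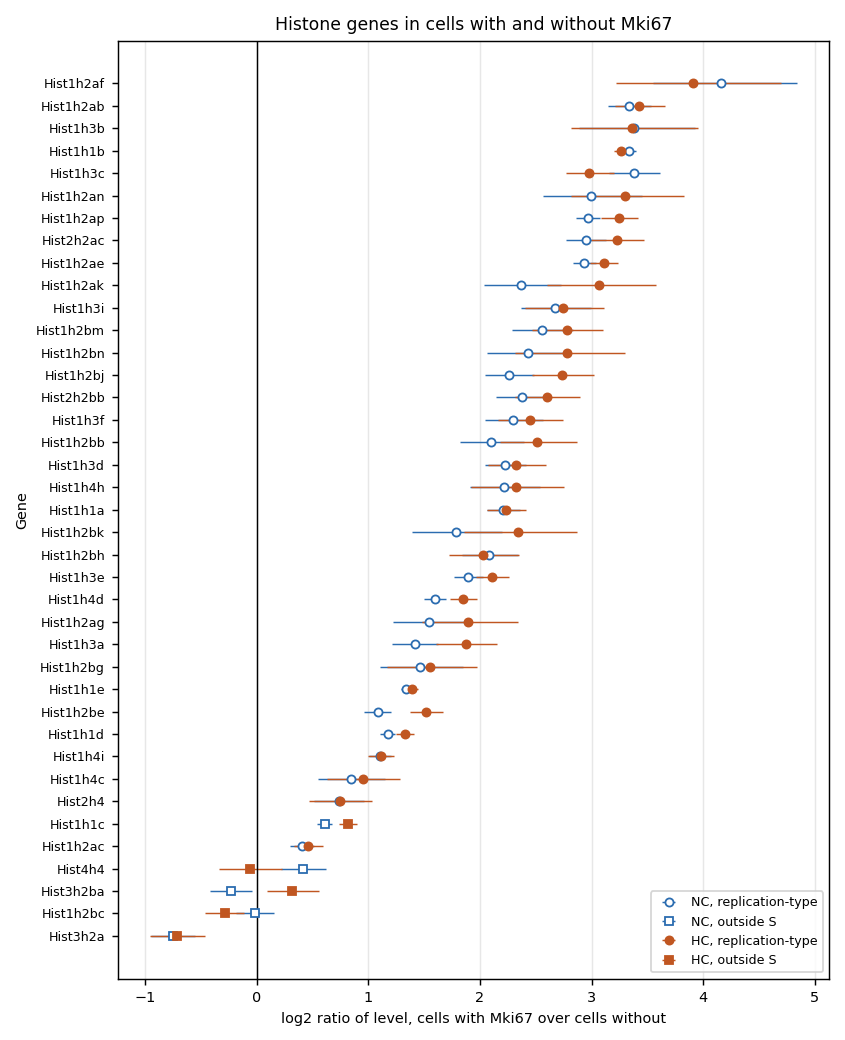
Log2 ratio of each gene's level in cells with at least 1 Mki67 UMI over cells with none, for the 39 clustered histone genes with at least 5 CPM. Open blue symbols are NC and filled orange symbols HC, circles are replication-type genes, squares genes also seen outside S phase, bars 95% counting intervals, and the vertical line is at 0. The squares and the circle of Hist1h2ac lie at the foot of the plot, and Hist1h2af is at the top with 4.16 in NC and 3.91 in HC.

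Single members covered a wide range. Hist1h1b went from cells without to cells with Mki67 by a log2 ratio of 3.34 in NC and 3.26 in HC. Hist1h1a followed with 2.21 and 2.23, then Hist1h1e with 1.34 and 1.39, Hist1h1d with 1.17 and 1.33, and Hist1h1c, of the outside S class, with 0.61 and 0.82. The 5 linker histones were in the same order in both libraries. Among the core histones Hist1h2ab, Hist1h3b, Hist1h2an, Hist1h2ap, Hist2h2ac and Hist1h2ae were between 2.94 and 3.43 in both. At the other end Hist1h2bc was at -0.02 (NC) and -0.29 (HC) and Hist3h2a at -0.75 and -0.71. Hist1h2ac, which the class lists count as replication-type, was at 0.41 and 0.46, below Hist1h1c in each library.

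Cdc6 and Ccnb1 split the same genes less. The replication-type class was higher in cells with Cdc6 by a log2 ratio of 0.71 in NC and 0.48 in HC, and in cells with Ccnb1 by 0.78 and 0.43. For the outside S class the ratios were 0.03 and 0.02 with Cdc6 and 0.21 and 0.15 with Ccnb1. With thinned cells the replication-type ratios were 0.77 (NC) and 0.58 (HC) for Cdc6 and 0.48 and 0.35 for Ccnb1, and the outside S ratios 0.11 and -0.025 for Cdc6 and 0.088 and 0.19 for Ccnb1. In NC 20 of 39 members were at least 1.5-fold higher in cells with Cdc6, against a background of 4.79%, and in HC 2 of 41, against 2.49%. In NC 26 of 39 members were at least 1.5-fold higher in cells with Ccnb1, against a background of 4.71%, and in HC 15 of 41, against 3.05%. Hist3h2a was at least 1.5-fold higher in cells without Cdc6 in both libraries, where the background was 1.9% in NC and 0.875% in HC. No member was 1.5-fold higher in cells without Ccnb1, where the background was 1.71% in NC and 0.646% in HC. Hist1h1a had the highest Cdc6 ratio of the 39 members, 1.20 in NC and 0.91 in HC. Hist1h2bc was below 0 in all of these splits, at -0.35 and -0.28 for Cdc6 and -0.20 and -0.44 for Ccnb1.

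The 3 markers together gave 8 kinds of cell, with median depths of 5597 to 14776.5 UMIs in NC and 5033 to 12041 in HC. With none of the 3, replication-type genes summed to 423 CPM (NC) and 457 CPM (HC). Cells with Mki67 as the only marker were at 1804 and 2327 CPM, and cells with Mki67 and Ccnb1 at 2154 and 2416 CPM. The highest sums were in cells with Mki67 and Cdc6 but no Ccnb1, at 2439 CPM (NC) and 2824 CPM (HC), with cells holding all 3 markers close behind at 2380 and 2758 CPM. Cells with Cdc6 but not Mki67 or Ccnb1 reached 772 and 971 CPM. Cells with Ccnb1 as the only marker were at 645 CPM (NC) and 591 CPM (HC), a log2 ratio of HC over NC of -0.13 (-0.23 to -0.02). In every other kind HC had the higher replication-type sum. Over the same 8 kinds the outside S class only ran from 80.3 to 136 CPM in NC and from 81.0 to 150 CPM in HC. Without Hist1h1c it was highest in cells with none of the markers, at 41.3 CPM (NC) and 40.5 CPM (HC).

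**Figure D3:**
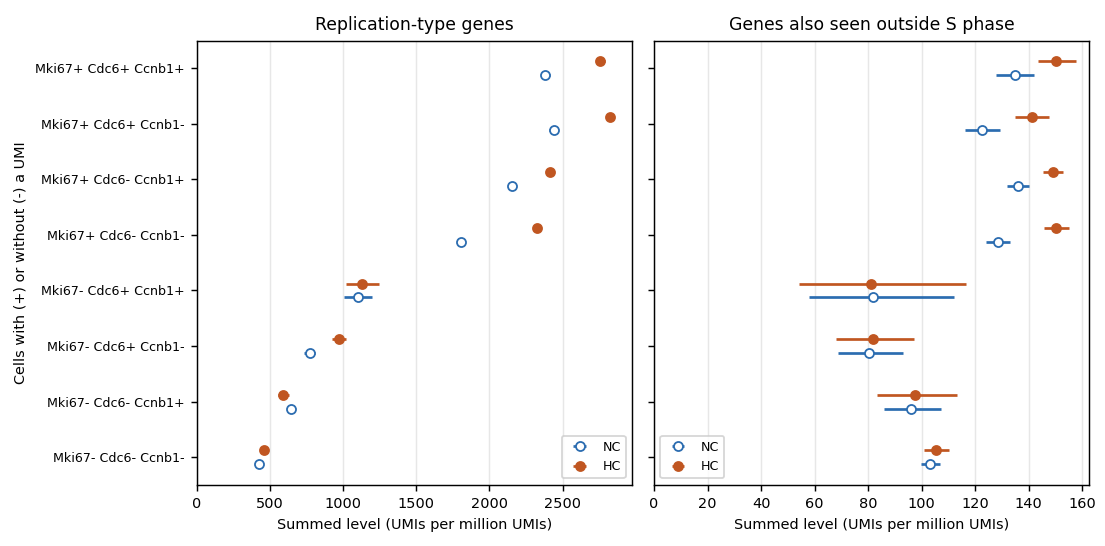
Summed level in CPM of the replication-type class (left) and of the genes also seen outside S phase (right) in the 8 kinds of cell given by presence (+) or absence (-) of a Mki67, Cdc6 or Ccnb1 UMI. Open blue points are NC, filled orange points HC, and bars 95% Poisson intervals. The left panel divides at Mki67, with all 4 kinds that have it at 1804 CPM or more, while the right panel stays between 80.3 and 150 CPM.

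Cells with Mki67 and Cdc6 but no Ccnb1 were set against cells with Mki67 and Ccnb1 but no Cdc6. Cdc6 protein acts before and early in S phase, and Ccnb1 RNA accumulates in G2. There were 944 and 2662 such cells in NC and 1339 and 3580 in HC. The replication-type class was higher on the Cdc6 side by a log2 ratio of 0.18 in NC and 0.23 in HC. Hist1h1a differed most, at 79.5 CPM on the Cdc6 side and 39.0 CPM on the Ccnb1 side in NC, a log2 ratio of 1.03 (0.90 to 1.15), and at 88.1 and 41.4 CPM in HC, a log2 ratio of 1.09 (0.98 to 1.20). Hist1h1b was at 0.39 and 0.42, Hist1h2ae at 0.33 and 0.30 and Hist1h1e at 0.24 and 0.28. On the other side lay Hist1h4d at -0.33 and -0.24, Hist3h2ba at -0.43 and -0.49, and Hist3h2a at -0.48 and -0.82. Across the 39 members the interval lay above 0 in both libraries for 6 and below 0 in both for 5. Replication-type genes thus lay on both sides, and the sides did not follow the families. The H4 gene Hist1h4i was at 0.16 and 0.46, on the side of Hist1h1a. The linker histone Hist1h1d was at -0.12 in NC and -0.05 (-0.13 to 0.02) in HC.

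A graded measure was given by the UMIs of 20 S phase genes, such as Pcna and the Mcm genes, in cells thinned to 2000 UMIs. From cells with 0 such UMIs to cells with 11 or more, the replication-type class went through 420, 769, 1674, 2510 and 3401 CPM in NC and 525, 1046, 2310, 3079 and 3665 CPM in HC. Each step was upward in both libraries. The outside S class went through 123, 111, 116, 129 and 154 CPM in NC and 124, 120, 157, 163 and 189 CPM in HC. Hist1h1b was at 45.5 CPM in the lowest bin and 1259 CPM in the highest in NC, and at 72.5 and 1231 CPM in HC. Hist1h2bc went through 14.8, 13.2, 9.79, 8.90 and 11.4 CPM in NC and 18.1, 16.5, 17.5, 10.0 and 13.3 CPM in HC. Its intervals overlap between the lowest and highest bins in each library. In HC the lowest bin, at 14.6 to 22.1 CPM, lay above the bin of 6 to 10 UMIs, at 7.68 to 12.8 CPM. In the top bin Hist1h1b no longer differed beyond counting error between the libraries, at 1182 to 1340 CPM in NC and 1167 to 1298 CPM in HC. The replication-type class still differed there, at 3274 to 3532 CPM in NC and 3554 to 3778 CPM in HC. A cell with 0 S phase UMIs at this depth can still be in S phase.

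**Figure D4:**
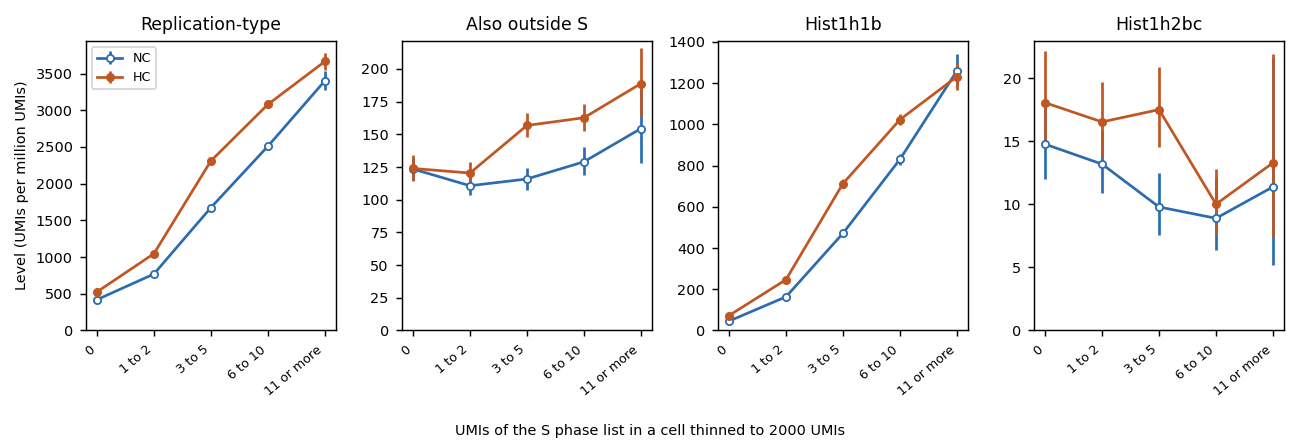
Level in CPM of the replication-type class, the class also seen outside S phase, Hist1h1b and Hist1h2bc, by the number of S phase list UMIs in cells thinned to 2000 UMIs. Open blue points are NC, filled orange points HC, and bars 95% Poisson intervals. The replication-type class and Hist1h1b climb through all 5 bins, and Hist1h2bc does not.

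Cells in which none of 39 cell cycle genes had a UMI at full depth numbered 406 in NC and 232 in HC. They were shallower, with medians of 5037.5 and 4455.5 UMIs against 7092.5 and 7540 in the others. After thinning, Hist1h1b was seen in 3.69% of them in NC (2.08 to 6.02%) against 32.0% of the other cells, and in 4.74% in HC (2.39 to 8.33%) against 44.4%. Hist1h3c was seen in 0 of 406 such cells in NC, and in 1 of 232 in HC. The outside S class as a whole was seen in 23.9% of them in NC (19.8 to 28.3%) against 20.3% of the others (19.7 to 21.0%). In HC it was seen in 18.5% (13.8 to 24.1%) against 23.9% (23.2 to 24.7%). The intervals of the 2 kinds of cell overlap in each library, so no direction is read from these shares. Hist1h1c was seen in 16.7% of them in NC against 13.5% of the others, and in 10.8% against 17.6% in HC. Hist1h2bc was seen in 0.49% of them in NC (0.06 to 1.77%), below the 2.33% of the others, and in 3.02% against 2.97% in HC. Hist1h2ac was seen in 4.93% against 5.43% in NC and in 3.02% against 5.85% in HC. A UMI of any replication-type gene was seen in 44.8% of these cells in NC and 56.0% in HC, and one of Hist1h1e in 12.1% and 24.6%. These are shares of barcodes with a UMI and not of cells that express the gene. RNA from lysed cells can add such UMIs, no cell type that lacks histone RNA was present to measure it, and its part in these shares was not tested.

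Within cells split by Mki67 the libraries lay closer together than over all cells, and in cells without Cdc6 or without Ccnb1 they lay further apart. In cells with Mki67 the replication-type class was at a log2 ratio of HC over NC of 0.23 (0.23 to 0.24), and in cells without Mki67 at 0.13 (0.09 to 0.16), against 0.43 over all cells. It was at 0.25 (0.24 to 0.27) in cells with Cdc6 and 0.48 (0.47 to 0.49) in cells without, and at 0.22 (0.20 to 0.23) in cells with Ccnb1 and 0.57 (0.56 to 0.59) in cells without. The outside S class was at 0.17 (0.14 to 0.21) in cells with Mki67 and 0.02 (-0.05 to 0.10) in cells without. Of the same 39 members, 2 passed 1.5-fold with HC the higher among cells with Mki67, Hist1h2an and Hist1h2bb, against a background of 1.77% of the same 8704 genes. Among cells without Mki67 it was 1, Hist1h3c, against 2.01%. The counts were 3 in cells with Cdc6, against 1.92%, and 14 in cells without, against 2.29%. In cells with Ccnb1 no member passed, against 2.08%, and in cells without it 19 did, against 2.64%. Hist4h4 was lower in HC in both, at -0.82 in cells with Mki67 and -0.35 in cells without. Hist1h2ap, level over all cells, was lower in HC in both kinds split by Mki67, at -0.22 and -0.49, but higher in cells without Ccnb1, at 0.22 (0.16 to 0.27). Hist1h3d was at -0.20 in cells with Mki67, at -0.30 (-0.61 to 0.00) in cells without it, and at 0.16 (0.05 to 0.28) in cells without Ccnb1. What part of the difference between libraries the share of cycling cells accounts for was not tested.

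The annotated 3' end of a gene went with its Mki67 ratio. Of the 39 members, 12 end within 100 bases of their stem-loop, and their median Mki67 log2 ratio was 2.41 in NC and 2.76 in HC. The 18 that run more than 100 bases past it had medians of 1.14 and 1.36. The other 9 had no stem-loop in the annotated model and medians of 2.43 and 2.78. The limit of 100 bases was chosen after the values were seen. Hist1h2ab, whose model ends 11 bases past the loop, was at 3.34 and 3.43, and Hist1h2ac, whose model runs 2010 bases past it, at 0.41 and 0.46. The 2 kinds overlapped. Of the longer models, Hist1h2ae, with 151 bases past the loop, was at 2.94 and 3.11, Hist1h3f, with 365, at 2.30 and 2.44, Hist1h3d, with 752, at 2.23 and 2.33, and Hist1h2bh, with 1214, at 2.08 and 2.03. Of the short ones, Hist1h3a was at 1.41 and 1.87 and Hist1h2ag at 1.55 and 1.89.

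Over the 30 members with a stem-loop, Spearman's rho between the bases past it and the Mki67 log2 ratio was -0.66 in NC and -0.74 in HC, and Pearson's r on log10 bases was -0.63 and -0.71. These describe the same genes in 2 libraries, many from neighbouring copies of one family, and carry no p-value. The polyadenylation signal AATAAA stood in the last 40 bases of 6 of the 39 models, those of Hist1h1c, Hist3h2a, Hist3h2ba, Hist4h4, Hist2h4 and Hist1h2ae. Their median Mki67 ratio was 0.51 in NC and 0.53 in HC, against 2.22 and 2.34 for the other 33. Of the 6, 4 belong to the class chosen as seen outside S phase, so the class and this signal are not separate measures.

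**Figure D5:**
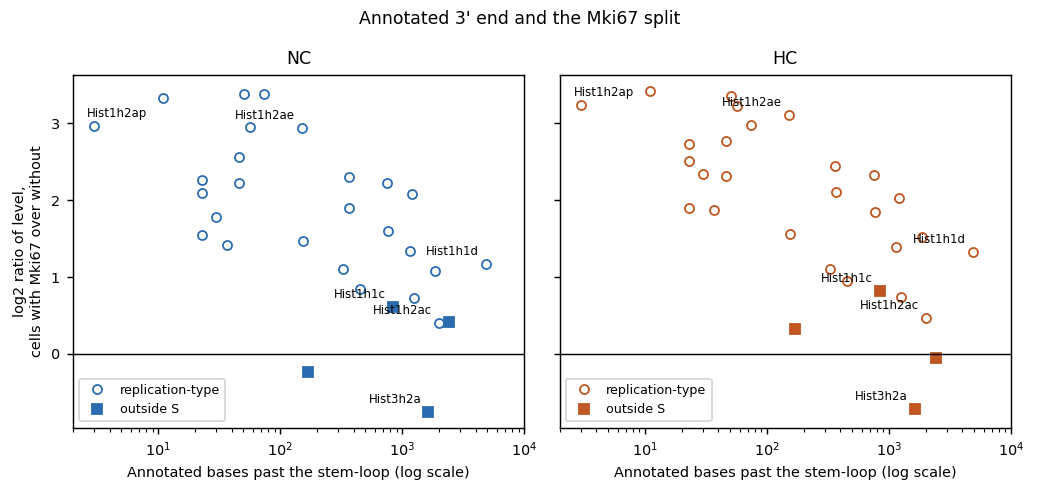
Log2 ratio of each gene's level in cells with over cells without Mki67 against the number of annotated bases past its stem-loop, on a log axis, for the 30 measured members with a stem-loop, in NC (left) and HC (right). Open circles are replication-type genes, filled squares genes also seen outside S phase, and the horizontal line is at 0. Genes that end within 100 bases of the loop all lie at 1.41 or higher, and those past 1000 bases lie between -0.75 and 2.08.

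Many clustered histone genes lie head to head as an H2A and an H2B gene that share the stretch between their start sites. There were 12 such pairs with gaps of 175 to 305 bases, of which 4 had both genes at 5 CPM or more. Some partners had similar ratios. Hist1h2ak and Hist1h2bn had Mki67 log2 ratios of 2.37 and 2.43 in NC and 3.07 and 2.78 in HC. Others did not. Hist2h2ac was at 2.95 in NC and 3.23 in HC, whereas its partner Hist2h2be was at 0.76 and 0.65, though with only 353 and 332 UMIs in total. Hist1h2ae was at 2.94 and 3.11 against 1.46 and 1.55 for Hist1h2bg. In the pair of Hist1h2ac and Hist1h2bc both genes were low, at 0.41 and -0.02 in NC and 0.46 and -0.29 in HC.

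Because partners share a promoter stretch, the sequence upstream of the H2A gene is shown for the pairs of Hist2h2ac and Hist1h2ac, beside the promoter of Hist1h1b. The sequences are from RefSeq on GRCm38.p6, 5' to 3' on the strand of the named gene and ending at its start site. Capitals mark the CCAAT box, the TATA box TATAAA and the octamer ATTTGCAT, in either orientation. Each stretch is the 250 bases before the start site less any base inside another member's annotated transcript.
Hist1h1b: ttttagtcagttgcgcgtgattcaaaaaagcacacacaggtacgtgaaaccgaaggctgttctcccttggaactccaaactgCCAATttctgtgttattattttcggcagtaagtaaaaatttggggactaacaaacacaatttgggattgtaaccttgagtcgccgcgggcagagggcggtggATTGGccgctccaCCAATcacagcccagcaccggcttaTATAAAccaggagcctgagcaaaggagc
Hist2h2ac: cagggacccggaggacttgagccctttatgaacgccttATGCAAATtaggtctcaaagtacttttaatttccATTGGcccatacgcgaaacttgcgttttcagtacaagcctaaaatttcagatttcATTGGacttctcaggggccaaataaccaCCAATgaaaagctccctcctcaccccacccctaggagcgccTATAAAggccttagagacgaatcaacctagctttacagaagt
Hist1h2ac: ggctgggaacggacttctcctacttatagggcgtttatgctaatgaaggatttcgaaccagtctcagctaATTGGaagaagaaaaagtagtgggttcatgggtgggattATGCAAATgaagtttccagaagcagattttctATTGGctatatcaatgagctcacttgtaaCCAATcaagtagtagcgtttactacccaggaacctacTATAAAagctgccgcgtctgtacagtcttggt
The Hist1h1b stretch covers chr13:21780626-21780875, that of Hist2h2ac chr3:96220881-96221118 and that of Hist1h2ac chr13:23683960-23684198, each on the minus strand. Both H2A stretches hold 3 CCAAT boxes, 1 TATAAA and 1 octamer, and the NC Mki67 ratios of the 2 genes were 2.95 for Hist2h2ac and 0.41 for Hist1h2ac. Hist1h1b holds 3 CCAAT boxes and 1 TATAAA. Over the 62 members with a promoter entry, CCAAT was found in 82.3% and in 33.8% of all 32851 promoters of the same length. TATAAA was found in 46.8% of members and 12.4% of all, and the octamer in 22.6% and 1.60%. The octamer was in 7 of 18 H2A and 7 of 16 H2B promoters and in none of the H1, H3 or H4 promoters. Head-to-head partners share much of the window, so the same motif can count for both, as in Hist1h2ae and Hist1h2bg. A member was counted if any of its promoter entries held the motif, whereas the background is per promoter. A match is a string of letters in a window and no measure of binding. Entries for Hist2h2be, Hist2h4, Hist1h3f, Hist1h2bc and Hist1h3a were missing.

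Copies of these genes are so alike that some counts cannot be assigned with certainty. Of the 67 members, 50 share at least 10% of their 90-base stretches with another member and 26 at least 50%, of which 10 had 5 CPM or more. Hist1h2ap shares 92.4% of its stretches, most with Hist1h2ao, and Hist1h2ab 53.6%, whereas Hist1h1b and Hist1h1a share none and Hist1h1d 1.06%. Hist1h2be and Hist1h1e overlap by 496 bases on the same strand. In all 7 members overlap another annotated gene on the same strand and 21 one on the other strand.

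Histone genes outside the clusters and genes that act on histones were read in the same way. Of 9 measured unclustered histone variants, 1 was at least 1.5-fold higher in HC, the linker histone H1f0 at 27.5 CPM (NC) and 49.9 CPM (HC). H2afx, the variant phosphorylated at DNA breaks, was at 231 and 290 CPM, a log2 ratio of 0.33, and its Mki67 ratio was 2.36 in NC and 3.19 in HC. H2afv and H2afy had log2 ratios of 0.30 and 0.34. Of 12 genes of histone RNA processing, none was 1.5-fold apart, and their median log2 ratio was 0.03. Casp8ap2 was at 0.23, Eri1, an exonuclease that trims the histone stem-loop, at 0.22, Sympk at 0.23 and Upf1 at -0.27.

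Of 15 measured histone chaperones, none was 1.5-fold apart, with a median of 0.02. Hjurp, the chaperone of the centromeric histone, was at 0.53, Chaf1a, a subunit of the chromatin assembly factor, at 0.32, Asf1a at -0.25 and Rbbp7 at -0.27. None of 20 S phase genes or 16 G2 and M phase genes passed 1.5-fold either, with medians of 0.19 and 0.35. Their most different members were Cdt1 at 0.50, Uhrf1 at 0.34, Clspn at 0.31 and Rrm2 at 0.28, and Top2a at 0.55, Bub1 at 0.46, Cenpe at 0.45 and Cenpf at 0.44. In cells with Mki67 all 20 S phase genes and all 16 G2 and M phase genes were at least 1.5-fold higher than in cells without, in both libraries, with median log2 ratios of 1.31 and 2.91 in NC and 1.27 and 3.22 in HC. The replication-type histone class, at 2.18 and 2.29, lay between these medians in each library, and the outside S class below both.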

How the data were processed

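The deposited files hold raw UMI counts per gene and barcode, which the authors made with Cell Ranger 6.1.2 per the file headers. Per the submitters' processing notes the tools were Seurat 3.2.3 and Cell Ranger, given there as 5.0.0, with build mm10. How introns, multiply mapped reads and strand were handled is not given in the sources used here, and that can shift counts between near-identical histone copies. Barcodes were kept from 500 detected genes and 1000 UMIs upward when mt- genes took no more than 10% of UMIs. Counts were summed over kept cells and divided by the library total (CPM), with exact Poisson, Clopper-Pearson and conditional binomial intervals at 95%. Several UMIs of a cell are not independent, so these intervals are too narrow for differences between cultures. No test was run, because each group was 1 library. Genes were counted as apart at 1.5-fold when they reached 5 CPM on either side of a comparison. Thinning drew 2000 UMIs per cell and left out 133 NC and 94 HC cells. Cells with a marker had at least 1 UMI of it.

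The members, classes and lists were chosen with earlier results of these data known. Named genes were the 30 members with the highest mean CPM, the outside S and testis classes, the 3 markers and up to 4 genes of each other list with the largest ratios. Hist2h4, Hist1h2af, Hist1h2bn, Hist1h2bk, Hist1h2bg, Hist1h3g, Hist1h4b, Hist1h2ao, Hist1h2ag, Hist1h2bq, Hist1h2br, Pcna and the Mcm genes, Slbp, Trim17, Cd4 and the 6 T cell genes fall outside that rule and were named for their position, role or values, after these were seen. Positions and transcripts are from GENCODE vM21 (GRCm38), which matched 32158 of 32285 genes by identifier, and promoters from RefSeq (GRCm38.p6), which matched 62 of 67 members. The step that gave the HC over NC ratios and intervals was tested on simulated data. There, 37.5% of 40 genes set at 1.5-fold were counted as apart, and 100% of the 80 genes set at 2-fold and of the 80 set at 4-fold. Of 8404 genes left unchanged, 0 were counted as apart. A gene that truly lies at 1.5-fold can thus be missed by the counts at that limit. For the unchanged genes the interval covered the ratio put in, rescaled to the simulated library total, in 95.0%. The counts were drawn from the Poisson model that the intervals assume, so this coverage does not test the intervals on real counts. Python 3.11.15, numpy 2.4.6, scipy 1.17.1 and pandas 2.3.3 were used. R 4.3.3 with edgeR 4.0.16 and DESeq2 1.42.0 gave scaling factors only, as alternatives. Other alternatives changed the depth and mitochondrial filters, the weight of cells, the CPM floor, the fold and the marker rule.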

Additional observations from a re-analysis of the deposited data

Results flagged for a closer look

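Hist1h1a was higher in cells with than without Ccnb1 in NC, at a log2 ratio of 0.34, and lower in HC, at -0.10. Hist3h2ba had a log2 ratio of -0.23 for cells with over without Mki67 in NC and 0.32 in HC. In each case the 2 libraries lay on opposite sides of 0. The difference between the libraries was not tested, since each group was 1 library.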

How the results depend on the processing

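No paired analysis was possible because each group was 1 library and no test was run. Depth limits the members below 5 CPM, whose ratios are not read, apart from those of Hist2h2be, which are given with its low counts. Of 234 values (39 single members under 6 alternatives) 191 stayed within their counting interval, 43 moved and no called member changed sign, with a largest shift of 0.30. Of the 13 members past 1.5-fold, 11 stayed past it in all 6, the exceptions being Hist4h4, at -0.44 with thinned and -0.58 with equally weighted cells, and Hist1h2bg, at 0.57 with thinned cells. For the values that moved, the cause was not tested, and moved means by more than counting error.

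The replication-type log2 ratio of HC over NC, 0.43, became 0.44 with TMM factors, 0.54 with thinned cells, 0.54 with equally weighted cells and 0.41 without Hist1h1b, 0.23 in cells with Mki67 and 0.13 in cells without. The outside S ratio, 0.20, became 0.26 with thinned cells, 0.024 in cells without Mki67, 0.27 for Hist1h2bc alone and -0.076 without Hist1h1c. The median over members, 0.41, became 0.51 with thinned and 0.51 with equally weighted cells. The 12 members higher in HC became 6 of 20 at a floor of 20 CPM (background 1.36% of genes), 27 of 39 at a fold limit between 1 and 1.5 (7.61%) and 0 at 2-fold (0.437%). With the floor applied anew within each kind of cell, they became 2 of 41 in cells with Mki67 (1.78%) and 1 of 22 in cells without (1.94%). The single member higher in NC became 2 at that lower fold limit, and 0 with thinned cells, with equally weighted cells, at 20 CPM, at 2-fold and in cells without Mki67.

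For the marker splits, thinned cells had the marker called anew. Their replication-type ratios were 1.56 (NC) and 1.39 (HC) for Mki67, 0.77 and 0.58 for Cdc6 and 0.48 and 0.35 for Ccnb1. Asking for 2 UMIs of the marker gave 2.36 and 2.40 for Mki67 and 0.76 and 0.29 for Ccnb1. A limit of 5% mt- UMIs gave 2.32 for Mki67 in HC, 0.67 and 0.43 for Cdc6 and 0.72 and 0.32 for Ccnb1. For the outside S class, 2 UMIs of the marker gave 0.45 and 0.59 for Mki67, -0.13 for Cdc6 in HC and 0.044 for Ccnb1 in HC, and thinning gave 0.11 for Cdc6 and 0.088 for Ccnb1 in NC. Leaving out Hist1h1c gave -0.069 and -0.12 for Mki67, -0.29 and -0.26 for Cdc6 and -0.040 and -0.056 for Ccnb1. Leaving out Hist1h1c or Hist1h1b and the splits of cells by Mki67 for the libraries' ratio were chosen after seeing the data.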
